A study of Arabidopsis thaliana with 12 samples.

Results

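HAB1, ABF2, ABF3 and AFP3 are 4 genes of abscisic acid signalling in Arabidopsis thaliana that carry splicing events in the authors' deposited tables. They were chosen by locus (HAB1 is AT1G72770, ABF2 AT1G45249, ABF3 AT4G34000, AFP3 AT3G29575) because these tables list them, and so their calls are given as a description with no test. They account for 4 of the 1502 genes of the 3 event tables, and for 9 of the 2732 listed events. Counted once over the tables, these are 6 of 1911 distinct events. The reference annotation gives the same symbols to all 4 loci.

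RNA of whole seedlings, 12 days old and grown on 0.5× MS medium, was sequenced in 12 libraries. The wild type Col-0 and the mutants smeb-1 and smeb-2, both labelled as Col-0 in background, were each kept at 22 °C or chilled at 4 °C for 24 h, with 2 replicates in each of the 6 groups. For the unchilled seedlings, a label gives 24 h at 22 °C and the treatment protocol gives 0 h at 4 °C. The mutants are named for SmEb, an Sm protein of the spliceosome; the labels describe neither lesion, nor whether replicates came from separate cultures. One event table is headed smeb under normal conditions, one smeb under chilling and one Col-0 under chilling. The groups that each table sets against each other, and the way the 2 alleles were combined, are not stated. An event has a kind, a position, a p-value and a false discovery rate (FDR), but no level, direction or value per library. Events are therefore called listed, never higher or lower, no spread between replicates can be given, and the depth is unknown.

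Abscisic acid is the hormone through which plants close stomata, hold seeds dormant and respond to drought, salt and cold. Receptors that have bound it capture the clade A protein phosphatases 2C, such as HAB1, which otherwise keep SnRK2 kinases inactive. The freed kinases phosphorylate bZIP transcription factors, among them ABF2 and ABF3, which switch on genes with abscisic acid response elements. AFP proteins bind such transcription factors and dampen the response. HAB1 and AFP3 are thus brakes of the pathway, and ABF2 and ABF3 its outputs.

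Under chilling, HAB1, ABF2 and ABF3 were listed in Col-0, and ABF2, ABF3 and AFP3 in smeb; the smeb table at 22 °C lists none of the 4. Beside these counts, genes with at least 1 listed event made up 3.01% of the 37899 annotated nuclear genes in the Col-0 table, 2.89% in the chilled smeb table and 0.0712% in the smeb table at 22 °C. Since the members were chosen from these calls, nothing is read from that difference. Retention of the last coding intron of HAB1 was listed in Col-0 alone, retention of an intron of ABF3 and of an intron of AFP3 in smeb alone. An exon of ABF2 and a pair of first exons of ABF3 were listed in both chilling tables at identical positions. HAB1, listed in chilled Col-0 alone, stands in the authors' SmEb-dependent list of 394 genes. AFP3, listed in chilled smeb alone, stands in their SmEb-independent list of 352 genes. ABF2 and ABF3, listed in both chilling tables, stand in neither. The list names are the authors' own. That of AFP3 is not read here as an event found with and without SmEb, since its event has no row for Col-0. None of the 4 genes is named in the gene columns of the authors' 2 tables of enriched gene ontology terms.

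**Figure D1:**
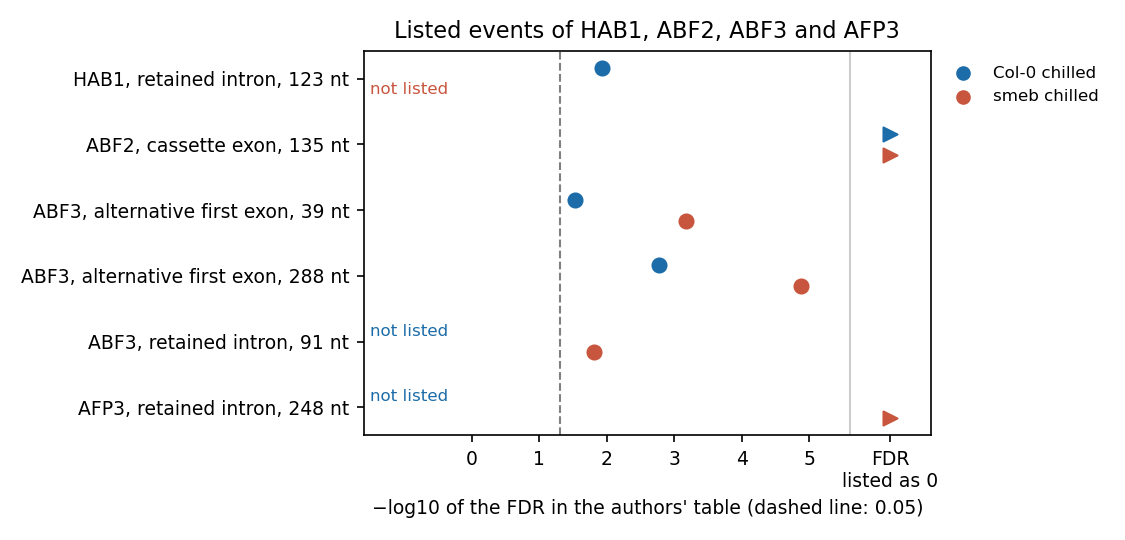
The horizontal axis is −log10 of the FDR in the authors' tables for the 6 distinct events, blue for Col-0 chilled and red for smeb chilled, with the dashed line at 0.05; triangles mark an FDR listed as 0. The ABF2 exon and the AFP3 intron sit at 0, the 39-nt first exon of ABF3 in Col-0 lies nearest the line (0.0297), followed by the ABF3 intron (0.0156) and the HAB1 intron (0.0117), and "not listed" marks an event with no row in a table.

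HAB1 is the phosphatase of the set. Its listed event in chilled Col-0 is intron 4, the last of transcript AT1G72770.1, at chr1:27392394-27392516 on the plus strand of TAIR10, 123 nt long and inside the coding span. The authors' deposited table gives it a p-value of 0.00116 and an FDR of 0.0117. Of the 1339 events listed for chilled Col-0, 961 had a lower FDR, as did 205 of its 286 retained introns, so the call lies in the weaker part of that table. Retention of this intron is already annotated: transcripts AT1G72770.1, AT1G72770.3 and AT1G72770.4 splice it out and AT1G72770.2 and AT1G72770.5 keep it. The shorter form it encodes in Arabidopsis is known as a truncated phosphatase that no longer restrains its kinase.

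The donor of this intron is printed because the frame of the retained form ends within it. The first 10 bases are the end of the exon, and the capitals mark the GT of the intron and the first stop codon in frame; the second line shows the acceptor, with the AG in capitals.
HAB1 donor, chr1:27392384-27392413, plus strand: aggtccatcgGTaagcattgcttctttTGA
HAB1 acceptor, chr1:27392492-27392521, plus strand: tctttcctcctctggaactatgcAGgtgac
The spliced transcript reads 511 residues and the retaining one 406. They share the first 401, so 110 residues at the C-terminal end of the phosphatase are replaced by 5. The stop ends at base 20 of the intron. In the frame of AT1G72770.1 no splice junction follows that stop, whereas in AT1G72770.3 and AT1G72770.4 one junction in the 3′ UTR follows it, 489 and 485 nt downstream.

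The position of this intron is shared within the phosphatase family. Of the 9 clade A phosphatases, 7 have a coding exon of 106 nt followed by an intron at the same place, which ranges from 84 to 614 nt. In all 7, reading on into the intron meets a stop codon inside it. The stop ends at intron base 8 in PP2CA, 20 in HAB1, 23 in ABI2 and HAI1, 29 in AHG1, 47 in ABI1 and 53 in HAB2. An annotated transcript keeps the intron in 3 of them, HAB1, ABI2 (AT5G57050.3) and HAI1 (AT5G59220.2), and the intron of HAB1 is the one listed in a chilling table. Over all 131152 distinct annotated introns of protein-coding genes, 211 (0.161%) are listed as retained in chilled Col-0 and 247 (0.188%) in chilled smeb, so that an unlisted intron is the usual case, and HAB1 was chosen for its listing; nothing is read from the count. The donors of HAB1, its close paralog HAB2, and PP2CA, whose stop comes soonest, are aligned here at the exon end, with GT and, where it falls within the stretch, the stop in capitals.
HAB1, chr1:27392384-27392413, plus strand: aggtccatcgGTaagcattgcttctttTGA
HAB2, chr1:6036401-6036430, plus strand: aggtccatcgGTaggtcaaacttgcactta
PP2CA, chr3:3584567-3584596, minus strand: agagcaattgGTgagTGAatctctcttgtg
The exon ends of HAB1 and HAB2 are identical and the introns diverge after the donor.

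**Figure D2:**
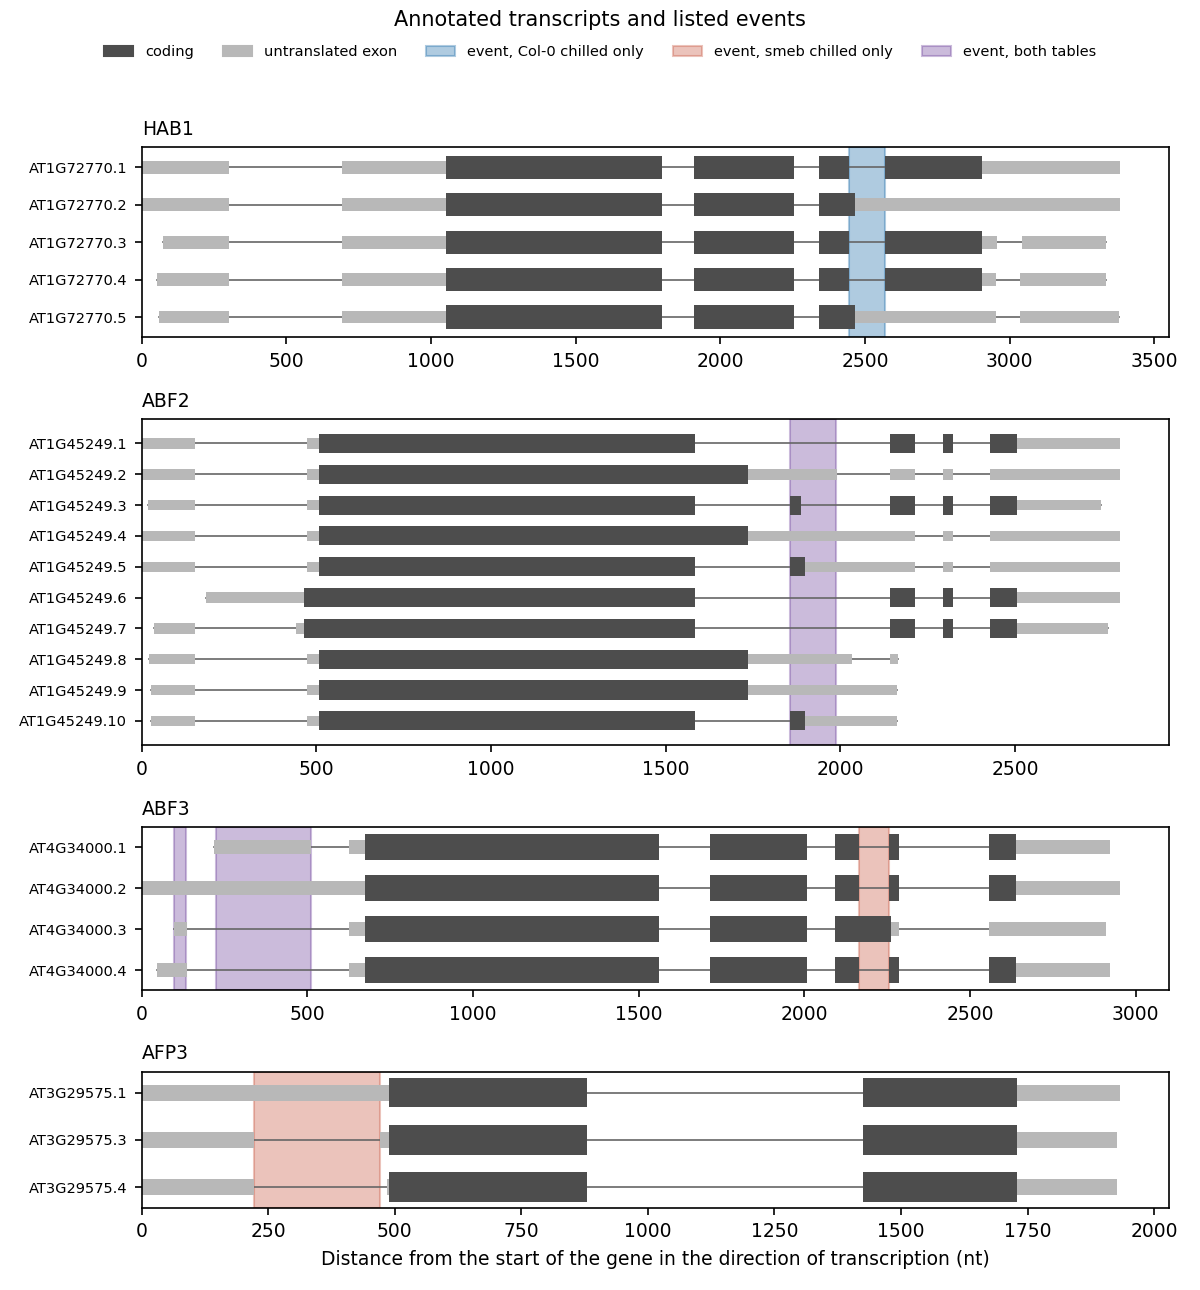
Annotated transcripts of the 4 genes are drawn in the direction of transcription, with the distance from the gene start in nt on the horizontal axis, coding exons dark, untranslated exons light and introns as lines. Shaded columns mark the listed events (blue Col-0 alone, red smeb alone, purple both); the HAB1, ABF3 and AFP3 introns are each kept by at least 1 annotated transcript.

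ABF2 has the lowest FDR among the events of the 4 genes that both chilling tables list. It is a bZIP transcription factor that binds abscisic acid response elements. The listed event is a cassette exon of 135 nt at chr1:17165935-17166069 on the minus strand, and p and FDR are both given as 0 by the authors' deposited tables for Col-0 and for smeb. The exon lies in the 559-nt intron at chr1:17165783-17166341 of AT1G45249.1, with 272 nt of intron before it and 152 nt after it. No annotated transcript holds exactly this exon, although both of its edges are annotated: its acceptor is used by AT1G45249.3, AT1G45249.5 and AT1G45249.10 and its donor by AT1G45249.2. Of 476 distinct cassette exons in the chilling tables, 315 equal an annotated exon and 9 (1.9%) share this situation of annotated edges without an annotated exon.

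The coding part of the exon and its splice sites are printed because the frame ends in it; capitals mark the stop in the first line and the AG and GT of the flanking introns in the others.
ABF2 coding part, chr1:17166025-17166069, minus strand: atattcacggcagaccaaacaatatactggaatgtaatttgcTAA
ABF2 acceptor, chr1:17166065-17166094, minus strand: gtatatacatgttgcccatccgcAGatatt
ABF2 donor, chr1:17165915-17165944, minus strand: ttggggcaagGTaatgggtaattggtgctc
With the exon, the frame of AT1G45249.1 falls from 416 to 372 residues. The first 358 are shared, 58 are lost and 14 are added before the stop at base 45 of the exon. The bZIP signature was taken as a fixed sequence pattern within the basic residues and spaced leucines through which these factors bind DNA and pair. It spans residues 346 to 378 of the 416 and is interrupted. Of the annotated transcripts that use this acceptor, AT1G45249.3 has a coding exon of 33 nt there and reads 427 residues, without a match to the signature. AT1G45249.5 and AT1G45249.10 also enter at this acceptor and do not leave the exon at its donor. They end at the same stop, at base 45, and also encode 372 residues. After the stop, 90 nt of the exon remain before the next junction, and 3 junctions follow in all. Whether such transcripts are degraded was not measured.

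The splice sites of the ABF2 exon are unequal. A score was given to each site as the summed log2 ratio of its bases to equal frequencies, from the base frequencies of all annotated introns of protein-coding genes, and a percentile gives the place of a score among them. The acceptor of the exon scored 4.14, at percentile 10.5, and its donor 8.50, at percentile 74.5. The sites that skip the exon scored 8.58 for the upstream donor (percentile 77.6) and 8.70 for the downstream acceptor (percentile 57.3). The exon's acceptor is thus the lowest of the 4 in percentile.

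ABF3, a close relative of ABF2, holds 5 of the 9 listed events, 3 in smeb and 2 in Col-0. Its retained intron was listed in chilled smeb alone, and the authors' deposited table gives it a p-value of 0.00199 and an FDR of 0.0156. Of the 327 retained introns of that table, 281 had a lower FDR. The intron is number 4 of 5 in AT4G34000.1, at chr4:16297499-16297589 on the plus strand, 91 nt long and inside the coding span. Transcripts AT4G34000.1, AT4G34000.2 and AT4G34000.4 splice it and AT4G34000.3 keeps it. It is printed whole with the first bases of the following exon, with GT, AG and the stop of the retained frame in capitals, because that stop lies past the acceptor.
ABF3 intron 4 to stop, chr4:16297499-16297594, plus strand: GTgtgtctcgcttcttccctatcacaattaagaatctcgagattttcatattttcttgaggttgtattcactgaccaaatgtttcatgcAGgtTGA
The intron is read through without a stop, and the frame closes at chr4:16297594 in the next exon, 25 nt before the next junction. The retained form reads 449 residues against 454, with the first 419 shared, 35 lost and 30 added. The bZIP signature at residues 382 to 414 lies before the change and is kept. Whether the zipper extends past this pattern into the changed part was not examined.

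Among the transcription factors of the pathway the coding exon before this intron also recurs. Of the 11 on the list, 8 have a coding exon of 72 nt. The next coding exon has 30 nt in 6 of them and 81 nt in AREB3 and EEL. Over all 8, the intron between is 80 to 364 nt long. Retention would meet a stop inside that intron in 6 of the 8, the exceptions being ABF3 and ABF2, whose 422 residues on retention exceed the 416 of the spliced form. Among the 8, an annotated transcript keeps this intron in ABF3 alone. The intron of ABF3, chosen for its listing, is listed and those of the others are not, beside the 0.188% of all annotated introns listed in chilled smeb; nothing is read from this count either.

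The other 4 listed events of ABF3 are its first exons. A first exon of 39 nt at chr4:16295431-16295469 and another of 288 nt at chr4:16295558-16295845 were listed as alternative starts in both chilling tables. For the 39-nt exon the authors' deposited tables give a p-value of 0.00362 and an FDR of 0.0297 in Col-0, and a p-value of 5.34e-05 and an FDR of 0.000683 in smeb. For the 288-nt exon they give a p-value of 0.000122 and an FDR of 0.00169 in Col-0, and a p-value of 7.31e-07 and an FDR of 1.33e-05 in smeb. The longer exon has the lower FDR in each table. In Col-0 the 39-nt exon is the weakest call of the 4 genes: 1174 of the 1339 listed events, and 61 of the 67 alternative starts, had a lower FDR. Both are spliced to 1 acceptor in AT4G34000.1, AT4G34000.3 and AT4G34000.4. Among these transcripts they are alternatives to each other, and they are not independent calls. AT4G34000.2, whose 5′ UTR of 674 nt is unspliced, uses neither donor. ABF3 is the only gene with 2 alternative starts in the Col-0 table (67 events in 66 genes), and likewise in the chilled smeb table (59 events in 58 genes).

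Both exons lie in the 5′ UTR, and the choice between them by itself leaves the protein unchanged. The 39-nt exon equals the first exon of AT4G34000.3 and ends where that of AT4G34000.4 (89 nt) ends, whereas the 288-nt exon starts 6 nt into the first exon of AT4G34000.1 (294 nt) and ends with it. The introns that follow are 490 and 114 nt. AT4G34000.1 has a 5′ UTR of 342 nt with 3 upstream ATG triplets, each followed by a stop in its frame before the start codon. AT4G34000.3 and AT4G34000.4 have 87 and 137 nt with 0 upstream ATG. The unspliced leader of AT4G34000.2 has 674 nt and 8 upstream ATG, each also followed by such a stop. In the annotation AT4G34000.3 also keeps intron 4 and reads 449 residues, whereas AT4G34000.4 splices it and reads 454. Upstream reading frames are known to lower translation of many plant transcripts; translation was not measured here. In the annotation the first exon of AT4G34000.1 starts at chr4:16295552, past the donor of the 39-nt exon. The donors of both first exons are shown with GT in capitals.
ABF3 donor of the 39-nt exon, chr4:16295460-16295489, plus strand: aaattcgaagGTcaggaaaattaacaaaaa
ABF3 donor of the 288-nt exon, chr4:16295836-16295865, plus strand: ttaaattttgGTactttaaaactggataaa
They scored 6.05 (percentile 33.4) and 5.50 (percentile 25.5), while the acceptor they share scored 14.00 (percentile 98.2).

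AFP3, a binding partner of bZIP factors of the pathway, was listed in chilled smeb alone. Its event is a retained intron with p and FDR both given as 0 by the authors' deposited table. It is intron 1 of 2 of AT3G29575.3, at chr3:11383676-11383923 on the minus strand, 248 nt long and in the 5′ UTR. AT3G29575.1 keeps it, and AT3G29575.4 uses the same donor with an acceptor 14 nt further downstream. The splice sites of the listed intron are printed because its acceptor departs from most; GT and AG are in capitals.
AFP3 donor, chr3:11383904-11383933, minus strand: gattttttcgGTaaatgttgaaattttgtg
AFP3 acceptor, chr3:11383671-11383700, minus strand: cggaattaatattctccgaccgaAGttatt
The acceptor scored 0.16, at percentile 1.56 of all annotated introns, against 12.16 and percentile 92.3 for the acceptor of AT3G29575.4. Of the 247 annotated introns of protein-coding genes listed as retained in chilled smeb, 6 had a lower acceptor score. The donor scored 6.75 (percentile 45.2).

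Retention leaves the 231 residues of AFP3 as they are and lengthens the leader before them. The 5′ UTR measures 488 nt in the retaining AT3G29575.1, 240 nt in AT3G29575.3 and 226 nt in AT3G29575.4. These hold 5, 3 and 2 upstream ATG triplets, of which 4, 2 and 2 reach a stop before the start codon.

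**Figure D3:**
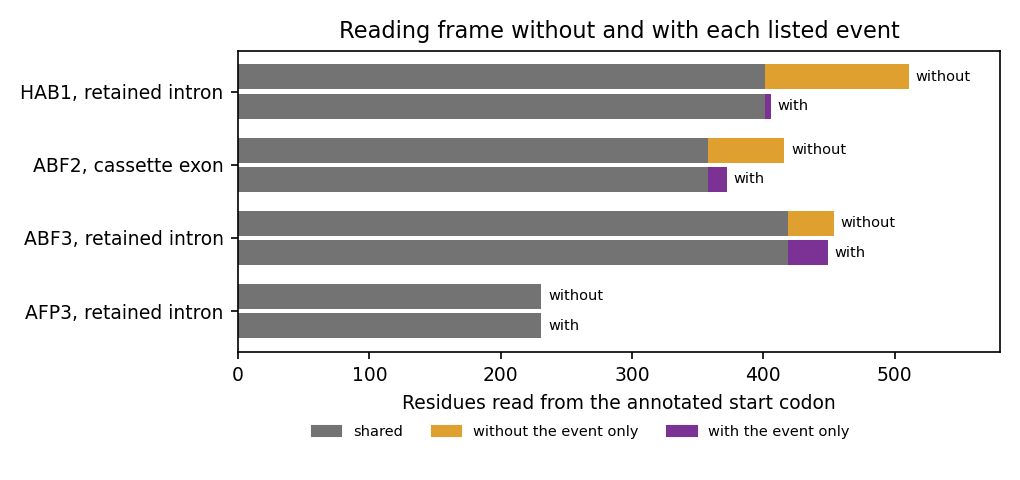
Bars give the residues read from the annotated start codon without and with the ABF2 cassette exon and each of the 3 retained introns, on the first annotated transcript that splices it (HAB1 511 and 406, ABF2 416 and 372, ABF3 454 and 449, AFP3 231 in both). Grey is shared sequence, orange is read without the event and purple with it; the AFP3 bars are grey throughout.

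The retained introns of HAB1, ABF3 and AFP3 differ from each other in composition. The AT content was 58.5% in HAB1 (percentile 2.39), 62.6% in ABF3 (percentile 11.8) and 73.4% in AFP3 (percentile 90.5), against a median of 67.2% over all annotated introns. HAB1 lies low even among the 211 annotated introns of coding genes listed as retained in chilled Col-0, whose median is 65.2%: 18 are lower and 192 higher. AFP3 lies high among the 247 of chilled smeb, whose median is 65%: 239 are lower and 7 higher. In length, the ABF3 intron (91 nt, percentile 35.1) is below the median of 101 nt and the introns of HAB1 (percentile 62.8) and AFP3 (percentile 82.7) are above it. Donor scores were 6.28 in HAB1 (percentile 36.2) and 5.40 in ABF3 (percentile 24.0), so that all 3 donors lie below the median. Listed retained introns also have low donors, with median percentiles of 34.8 in chilled Col-0 and 35.9 in chilled smeb. Among the listed introns of its table, the HAB1 donor lay at percentile 52.4, that of ABF3 at 33.4 and that of AFP3 at 57.3. The acceptor of HAB1 scored 8.05 (percentile 48.3) and that of ABF3 10.37 (percentile 77.8).

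**Figure D4:**
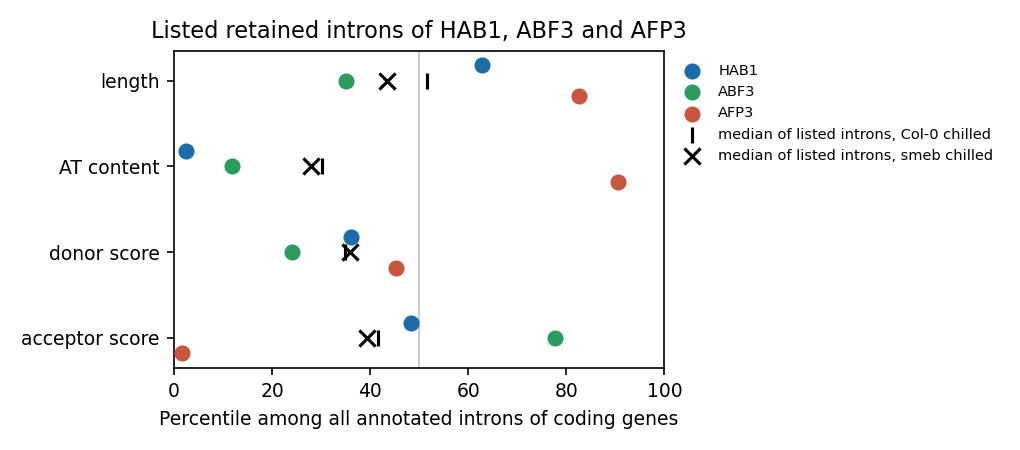
Points give the percentile of each retained intron (HAB1, ABF3, AFP3) among all annotated introns of coding genes for length, AT content, donor score and acceptor score; bars and crosses give the medians of introns listed as retained in chilled Col-0 and in chilled smeb. AT content runs from percentile 2.39 in HAB1 to 90.5 in AFP3, and the AFP3 acceptor lies at 1.56.

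All 3 introns have an annotated transcript that keeps them, which is usual for listed introns. Of the 286 retained introns in the Col-0 table, 216 (75.5%) are annotated introns, and 215 of these (99.5%) are kept by an annotated transcript. For smeb the figures are 252 of 327 (77.1%) and 251 (99.6%). Over all annotated introns the share is 7.53%. The tables do not say whether the event caller drew its events from annotated transcripts.

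The share of retained introns that both chilling tables list differed with the FDR. Of the 86 Col-0 retained introns with an FDR from 0.01 to 0.05, the range of HAB1, 36 (41.9%) are also listed in smeb. Of the 57 smeb introns in that range, which holds ABF3, 18 (31.6%) are listed in Col-0. Of the 139 smeb introns with an FDR of 0, such as that of AFP3, 102 (73.4%) are listed in Col-0, where AFP3 is not. By the ranks behind p and FDR, HAB1 stood at rank 966 of 9710 events tested in Col-0 and the ABF3 intron at rank 1309 of 10308 in smeb. At least 334 smeb events (19.7%) that rank above the last listed one are missing from the chilled smeb table, against 7 (0.52%) in Col-0. Whether the HAB1 intron is among the 334 is unknown. From the smeb table at 22 °C, at least 9 events (20.9%) are missing in the same way. The difference between the genotypes was not tested for HAB1, ABF3 or AFP3.

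For the 3 events in both chilling tables, the FDR in smeb was lower for both ABF3 exons and equal for the ABF2 exon. Over all 807 events shared by these tables, it was lower in smeb for 401, higher for 239 and equal for 167. The mutants have 4 libraries at each temperature and Col-0 has 2, and the tables do not say which libraries were shared between them.

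Around the members, 73 genes of the pathway were grouped by role. Of these, 10 (13.7%) were listed in chilled Col-0 and 11 (15.1%) in chilled smeb, beside the 3.01% and 2.89% of annotated genes, and 0 at 22 °C. Without the 4 members the counts were 7 and 8 of 69 (10.1% and 11.6%). The annotated genes behind 3.01% and 2.89% include pseudogenes and non-coding genes. Of the 73, 56 have an annotated intron, and of these 10 were listed in Col-0 and 11 in smeb. Among all genes with an intron, 4.68% and 4.52% were listed in Col-0 and smeb. The 56 include the 4 members. Because the list was drawn up with earlier results of these data known, nothing is read from these shares.

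Among the receptors, 1 of 14 was listed: RCAR3 (AT5G53160, also PYL8) had an 80-nt intron listed as retained in both. For it the authors' deposited tables give an FDR of 0.000664 in Col-0 and of 0 in smeb. HAB1 was the single phosphatase of 9. Of the 10 SnRK2 kinases, SNRK2.2 (a 22-nt alternative 5′ splice site) and SNRK2.3 (a 43-nt alternative 3′ splice site) were in both tables, and SNRK2.10 (an 8-nt alternative 5′ splice site) in Col-0 alone. The 43-nt event of SNRK2.3 overlaps another annotated gene, so its gene is uncertain; a 12-nt alternative 3′ splice site of SNRK2.3 was listed in smeb alone. ABF2 and ABF3 were the 2 transcription factors of 11, and ABF1, ABF4 and ABI5 were not listed. AFP3 was the single AFP gene of 4.

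Of the 10 genes of synthesis, ABA1 (zeaxanthin epoxidase) and AAO3 (abscisic aldehyde oxidase) were in both tables and ABA3 (the molybdenum cofactor sulfurase) in smeb alone. None of the 4 genes of breakdown, and none of the 4 of transport, was listed. Of 7 regulators of RNA processing with a link to the hormone, AT1G60200, which the authors' tables describe as a PWI domain and RNA recognition motif protein, had a cassette exon of 81 nt in both tables. Its FDR in the authors' deposited tables was 0.00680 in Col-0 and 1.04e-09 in smeb. AT3G52120, described there as a SWAP and G-patch domain protein, had a 107-nt intron and a 126-nt alternative 3′ splice site in smeb alone. HAB1 and SNRK2.10 were thus the list's genes in Col-0 alone, and AFP3, ABA3 and AT3G52120 those in smeb alone. The loci of the Sm protein E, AT2G18740 and AT4G30330, had 0 listed events. Annotated genes with a listed event made up 3.01% in chilled Col-0 and 2.89% in chilled smeb, so nothing is read from this count.

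**Figure D5:**
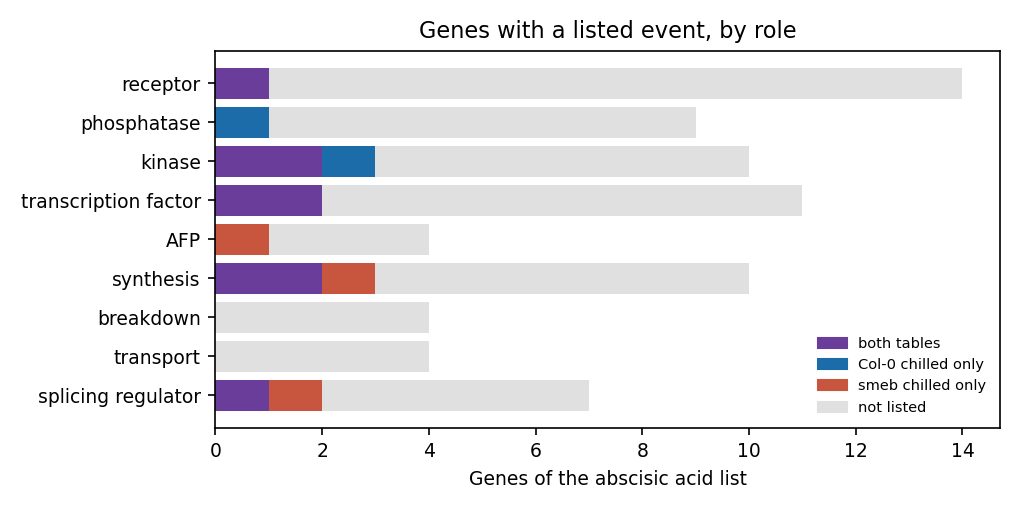
Bars give the number of genes of the abscisic acid list per role, coloured by whether an event is listed in both chilling tables (purple), in Col-0 alone (blue), in smeb alone (red) or in neither (grey). The listed phosphatase (1 of 9, HAB1) is in Col-0 alone and the listed AFP gene (1 of 4, AFP3) in smeb alone. Both listed transcription factors of 11 (ABF2 and ABF3) are in both tables. All of these genes were chosen for their listing, so nothing is read about their roles.

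Genes whose listing is most like that of each member were taken as those in the same tables, with the same kinds and number of events and the nearest lowest FDR on a log10 scale. For HAB1, 72 genes had a single retained intron in Col-0 alone, 35 of them with a symbol, and the nearest were CYSD2 (FDR 0.0122 in the authors' deposited table), a cysteine synthase, and TTN9 (0.0123). For ABF2, 124 genes had a single cassette exon in each chilling table and 18 of the 66 with a symbol matched its FDR of 0, the first by locus being MEE5 and RBP45B, a splicing GTPase and an RNA-binding protein. For AFP3, 92 genes had a single retained intron in smeb alone, 10 of the 45 with a symbol matched its FDR of 0, and the first by locus were NUC-L1, a nucleolin, and DEK1, a calpain. No other gene had the set of events of ABF3.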

How the data were processed

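The 12 libraries were sequenced by the submitters. Trimmomatic 0.32, TopHat2 2.0.13 and the TAIR10 build are named in the submitters' processing notes; the event caller, its filters and its use of strand were not given in the sources used here. Of 7 deposited tables, 3 list splicing events. The authors deposited for each event a p-value (headed adjusted P value per the file headers) and an FDR, without counts or values per sample, so the depth per sample and its precision are unknown and no test was run. The fixed plan foresaw none.

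The members and lists were chosen with earlier results of these data known. Identical rows were counted once (21 of 55 in the smeb table at 22 °C). A listed retained intron includes 1 exon base at each side, which was removed. The TAIR10.1 annotation and genome of RefSeq gave transcripts, frames and all printed sequences; 1834 of 1891 chilling events (97.0%) lie inside their listed gene. Donors were scored over 3 exon and 6 intron bases and acceptors over 15 intron and 3 exon bases, with a pseudocount of 1 and a base frequency of 0.25. Introns, frames and families follow the first annotated coding transcript unless another is named. The number of events tested was inferred from the ratio of p to FDR. Ranks were whole within 0.0001 for 88.4% of smeb and 85.3% of Col-0 events at a p above 0. The number was recovered in 3 of 3 simulated tables. These kept every event under the FDR limit, unlike the smeb table, so recovery with missing events was not tried. Named are all events of the 4 members, every listed gene of the abscisic acid list, and for each member the 2 nearest genes. Python 3.11.15, NumPy 2.4.6, Biopython 1.88 and Matplotlib 3.10.9 were used. Alternatives were FDR limits, overlap in place of identity, intron-bearing genes as background, other transcripts and other intron sets.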

Additional observations from a re-analysis of the deposited data

How the results depend on the processing

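At an FDR under 0.001, the listed events of the 4 genes numbered 5 in place of 9 (6 under 0.01), the genes listed in Col-0 1 in place of 3 (ABF2), and the genes of the abscisic acid list 5 in place of 10 in Col-0 and 8 in place of 11 in smeb (6.85% and 11% of the list, beside 1.47% and 1.79% of all genes at that limit). With the ABF2 exon read in transcripts AT1G45249.6 and AT1G45249.7, which start further upstream, the frame ends at 387 residues. Among introns of the first coding transcript of each gene, the percentiles of length, AT content, donor and acceptor became 64.9, 1.99, 34.6 and 46.8 for HAB1, 36.4, 11.2, 22.5 and 77.1 for ABF3, and 84.2, 90.2, 43.8 and 1.04 for AFP3. Counting overlapping intervals as shared also gave 3 events. With genes that have an intron as background, the share of genes listed became 4.68% in Col-0 and 4.52% in smeb; the counts of list genes (10 and 11) cannot change with it, nor can the 9 member events with repeated rows, which occur only in the smeb table at 22 °C. The HAB1 and ABF3 frames were equal in every transcript that splices the intron. No paired analysis was possible because the tables hold no values per replicate, and for the same reason no replicate could be left out. The tables lack effect size and direction, an unlisted event may have failed the limit or may never have entered a test, and the depth that limits these calls is unknown.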
